A study of Nicotiana tabacum with 10 samples.

Results

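A set of 66 gene models was present in tobacco cells deprived of auxin and almost absent from cells supplied with it. They were chosen by their measured reads, among 69500 gene models of the deposited tables: at least 10 CPM (a model's share of its library's estimated reads, times 1000000) in each of 3 auxin-free libraries, and at most 3 estimated reads in each of 7 control libraries. Their presence in one group and absence from the other therefore follows from the choice, and those levels are given as a description without a test. All libraries came from BY-2, a suspension cell line of Nicotiana tabacum cv. Bright Yellow 2 grown in the dark with shaking. The 3 auxin-free samples were inoculated into medium with 0 mg/l of 2,4-dichlorophenoxyacetic acid (2,4-D), a synthetic auxin. The 7 control samples grew in the same medium with 0.2 mg/l of it. Both were collected 48 h after inoculation, and the labels place both in the exponential growth phase. The design text describes the control samples as biological replicates, whereas the origin of the auxin-free replicates is not stated, so their spread, and the p-values that use it, may be technical.

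Auxin is the plant hormone that keeps cultured cells dividing. It is perceived by TIR1/AFB receptors, which mark Aux/IAA repressors for degradation and so free ARF transcription factors to act on their targets. Tobacco suspension cells deprived of auxin stop dividing, enlarge and, with cytokinin, can fill plastids with starch. Which of these functions the 66 models serve is not known here, because none of the 69500 Nitab4.5 identifiers matched the tobacco reference names used. For the same reason the cell line could not be checked against marker genes. The models are named by identifier only, in which the digits before the letter g were read as the scaffold and those after it as the order along the scaffold.

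The switched-on models took 0.268, 0.313 and 0.299% of the reads in auxin-free replicates 1, 2 and 3, against 9.69e-05 to 0.000344% in the 7 controls (median 0.000183%). In CPM the auxin-free sums were 2680, 3126 and 2990, and the control sums ran from 0.969 to 3.44 with a median of 1.83. Each control sum was 0.033 to 0.117% of the auxin-free mean, with control replicate 7 highest. The lowest value of any switched-on model in an auxin-free library was 10 CPM, or 152 reads, while the highest in any control was 0.266 CPM. In RNA from whole cultures, more RNA per cell and more cells that express a gene cannot be told apart. All 66 models passed the test of auxin-free against control (edgeR's quasi-likelihood test, Benjamini-Hochberg adjusted p at most 0.05), which called 32.9% of the 37034 tested models higher. The fitted log2 fold changes of the 48 models with control reads ran from 7.37 to 12.42 with a median of 9.78, where all tested models had a median of 0.02. For the 18 models without control reads the fitted value is not a measure of the fold. With these set at the lower bounds given further on, the median of the 66 was 9.89. The members were chosen on the same counts, so nothing is read from these calls.

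**Figure D1:**
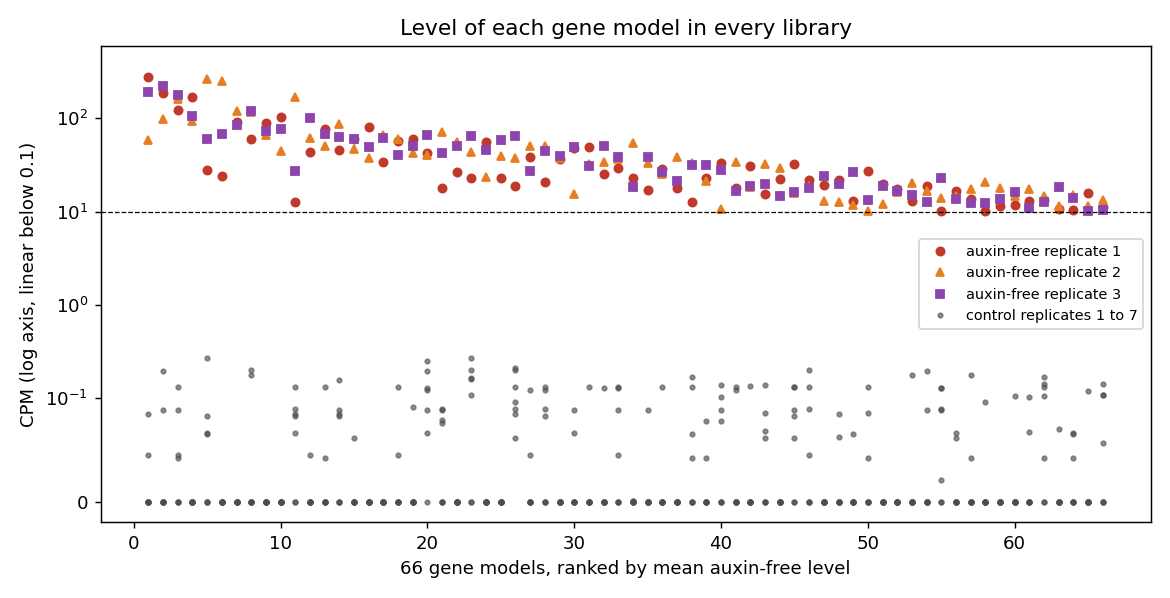
CPM of each of the 66 gene models in every library, ranked by mean auxin-free level; coloured symbols are the 3 auxin-free replicates, grey points the 7 controls, and the dashed line is the minimum of 10 CPM that chose the models. The vertical axis is logarithmic above 0.1 and linear below it; all auxin-free points lie at 10 to 281 CPM and all control points at 0 to 0.266 CPM.

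The models differed in level by little more than an order of magnitude. Their mean auxin-free level ran from 11.6 to 177 CPM with a median of 33.5, and 6 models averaged at least 100 CPM, 13 between 50 and 100, 26 between 20 and 50, and 21 below 20. The 14156 models at 10 CPM or more in each auxin-free library had a median of 30.4 CPM, so the switched-on models sat in the middle of that range rather than among the most abundant transcripts. The most abundant of them ranked 733rd among all models by mean auxin-free CPM. Reads were unevenly divided: the top 5 models carried 25.2% of the set's auxin-free reads and the top 10 carried 41%, while the lower 33 carried 21.3%.

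The most abundant model was Nitab4.5_0000505g0100.1 (839 bases), with 281, 58.4 and 190 CPM in auxin-free replicates 1, 2 and 3. Controls 1 and 2 held 2 and 1 reads of it and the other controls none. Its auxin-free values were uneven, with replicate 2 far below the other replicates. Nitab4.5_0008525g0020.1 (732 bases) had 189, 99.6 and 220 CPM in the auxin-free libraries, against 1 read in control 6, 3 reads in control 7 and none elsewhere. Here too auxin-free replicate 2 was lowest. Nitab4.5_0003324g0100.1 (760 bases) was more even at 122, 163 and 178 CPM, against 5 reads spread over controls 1, 2, 6 and 7. Ratios to the pooled control level, with 95% intervals from the control reads alone, were 6840 (2341 to 33170) for Nitab4.5_0000505g0100.1, 4926 (1924 to 18080) for Nitab4.5_0008525g0020.1 and 3579 (1534 to 11023) for Nitab4.5_0003324g0100.1. The intervals overlap, so these folds do not order the 3 models.

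For 18 of the 66 models the control reads summed to less than 0.5, and their fold is only a lower bound, set by 3 reads over the 116226522 reads of all controls (0.0258 CPM). These bounds ran from at least 557-fold to at least 4755-fold higher in auxin-free cells, with a median of 1600. The 5 most abundant were led by Nitab4.5_0002196g0060.1 (987 bases), with 170, 93.3 and 105 CPM in the auxin-free libraries and no read in any control, at least 4755-fold higher. Nitab4.5_0001225g0250.1 (1602 bases) had 23.9, 250 and 68.8 CPM in auxin-free libraries and none in controls, at least 4424-fold higher. Its mean rests on replicate 2. Nitab4.5_0000314g0070.1 (897 bases) was even, at 92.1, 119 and 85.8 CPM in auxin-free libraries, and was at least 3838-fold higher. Nitab4.5_0002009g0020.1 (1016 bases) had 88.7, 67.1 and 72.8 CPM and was at least 2952-fold higher. The fifth, Nitab4.5_0000273g0090.1 (1410 bases), had 104, 44.8 and 77.7 CPM and was at least 2922-fold higher. None of the last 3 had a control read.

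A further 22 models had 1 to 3 reads over all controls and 26 had more than 3. For the 48 models with control reads the ratio ran from 167 to 8000 with a median of 1008. The lowest ratio belonged to Nitab4.5_0000465g0100.1 (1905 bases), which had 13.5, 14.7 and 12.8 CPM in the auxin-free libraries and 9.5 reads over 5 of the controls (ratio 167, interval 89.5 to 356). The highest belonged to Nitab4.5_0000956g0060.1 (585 bases), with 43.5, 62.1 and 101 CPM in auxin-free libraries and 1 read in control 2; that single read leaves an interval of 1436 to 315969.

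Per length the order of the models changed. TPM, Salmon's abundance per effective length, was highest for Nitab4.5_0000771g0010.1, a short model of 384 bases with 316, 601 and 610 TPM in the auxin-free libraries. Its CPM of 59.6, 116 and 120 placed it only among the top 8 by reads. The next in TPM was another short model, Nitab4.5_0007171g0020.1 (357 bases), at 285 ± 96.1 TPM (SD, n = 3) in auxin-free libraries, with no control reads. Nitab4.5_0008525g0020.1 followed at 281 ± 101 TPM, Nitab4.5_0003324g0100.1 at 255 ± 45.5 TPM and Nitab4.5_0000505g0100.1 at 221 ± 143 TPM. The auxin-free TPM values of these 4 overlap. Nitab4.5_0004646g0080.1 averaged 194 ± 242 TPM, Nitab4.5_0000956g0060.1 192 ± 78.4 TPM and Nitab4.5_0000314g0070.1 164 ± 32.2 TPM. Both leading short models had small effective lengths in the auxin-free libraries, 135 and 108 bases on average, and TPM values of such models depend strongly on that estimate. At the other end, the 2 longest models, Nitab4.5_0004447g0040.1 (3558 bases) and Nitab4.5_0016182g0010.1 (2682 bases), had 3.8 ± 0.556 and 4.14 ± 0.544 TPM in auxin-free libraries. In the whole set the mean auxin-free TPM ran from 3.8 to 509 with a median of 31.4, against a median of 17.6 for the 14156 models at 10 CPM or more in each auxin-free library.

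The switched-on models had a lower median length than all models at 10 CPM or more in each auxin-free library. Their lengths ran from 357 to 3558 bases with a median of 1004 and a middle range of 739 to 1430. The 14156 models at 10 CPM or more in each auxin-free library had a median of 1481 bases, the 37034 tested models 1185 bases, and all 69500 models 901 bases. By length class, 9 models had at most 600 bases, 24 had over 600 and up to 1000, 20 had over 1000 and up to 1500, 9 had over 1500 and up to 2000, and 4 were longer. A length divisible by 3, as for a coding sequence, was found in 77.3% of the 66 models, 76.8% of tested models and 66.2% of the models at 10 CPM or more in each auxin-free library. These are descriptions of the models and were not tested. The gap between length and effective length differed between the groups: its median over the 66 models was 299, 305 and 302 bases in auxin-free libraries, and 395 to 647 bases (median 603) in controls, so TPM is not compared between the groups here. The groups did not overlap in this gap. It was taken over the 66 models only, which were chosen to have few control reads. The choice, the libraries and auxin therefore cannot be told apart in it. Reads and CPM come from the same libraries. With effective lengths allowed for in the fit, 11905 models were called higher, against 12194 without. Other effects on the folds were not tested.

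The median switched-on model varied more between the auxin-free libraries than the median of all models with at least 10 CPM there. The coefficient of variation (SD over mean) across the 3 auxin-free libraries had a median of 0.319 (middle range 0.192 to 0.426) in the switched-on models, against 0.13 (0.0775 to 0.209) in the 14156 models at 10 CPM or more in each. The median was also 0.13 in the 13193 of those whose mean level lay within the range of the 66. The highest auxin-free value exceeded the lowest by a median of 1.9 times, against 1.28 times in the larger set. Of the switched-on models 29 had at least a 2-fold range, and the matching share of the larger set was not computed. A range under 1.5-fold was found in 18 (27.3%) of them and in 75.1% of the larger set. The choice of models removed those with any auxin-free value below 10 CPM, in both sets alike. The difference in spread was described and not tested.

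**Figure D2:**
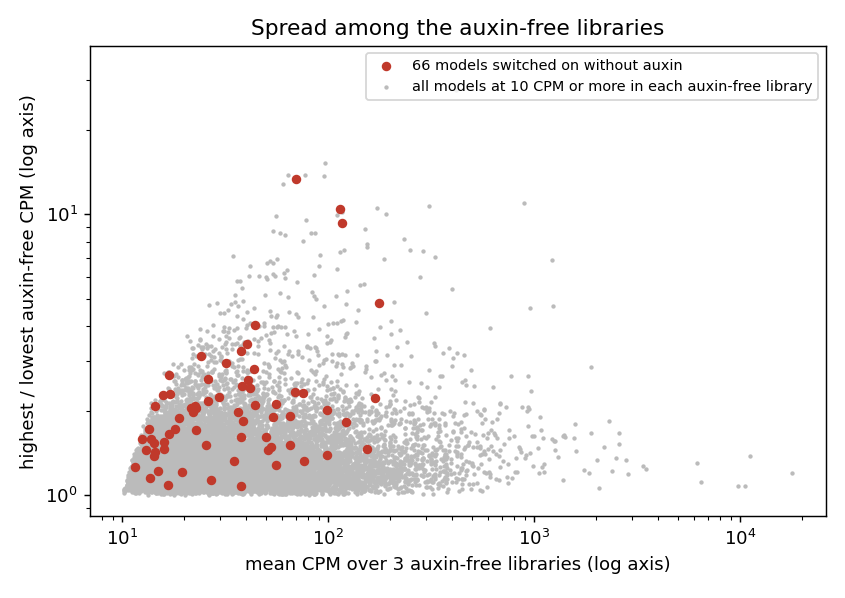
Highest over lowest CPM among the 3 auxin-free libraries against mean CPM, both on log axes; red points are the 66 switched-on models and grey points all 14156 models at 10 CPM or more in each auxin-free library. The red points have a median of 1.9 and the grey a median of 1.28; 3 red points lie above 5.

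Each auxin-free library was highest for some of the models. The highest value of a model was in replicate 1 for 21 models (31.8%), in replicate 2 for 25 (37.9%) and in replicate 3 for 20 (30.3%), where the shares over the 14156 models were 43.8, 36.3 and 19.9%. Without replicate 2 the median coefficient of variation was 0.226 in the 66 models and 0.076 in the larger set. The lowest was in replicate 1 for 28, in replicate 2 for 23 and in replicate 3 for 15. In the median model the values of replicates 1, 2 and 3 were 0.934, 0.99 and 0.999 of the mean of the 3.

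The most uneven models shared a pattern. Nitab4.5_0004646g0080.1 (603 bases) had 12.7, 169 and 27.1 CPM in auxin-free replicates 1, 2 and 3, a coefficient of variation of 1.24. Nitab4.5_0009234g0010.1 (1293 bases) had 28.2, 263 and 60.2 CPM, with a coefficient of 1.09. Nitab4.5_0001225g0250.1, whose values are given above, had one of 1.05. In all 3, replicate 2 was highest and replicate 1 lowest, and the highest value was 13.3, 9.34 and 10.4 times the lowest. They were the only ones of the 66 with at least a 5-fold range (4.55%, against 0.502% of the 14156 models). The next, Nitab4.5_0000505g0100.1 with a coefficient of 0.635, had the opposite pattern, with replicate 2 lowest. The most even model was Nitab4.5_0000355g0100.1 (1097 bases), with 36.6, 37.8 and 39.4 CPM in auxin-free libraries, a coefficient of 0.037. Nitab4.5_0002007g0010.1 (1077 bases) had 17.5, 16.1 and 16.8 CPM, a coefficient of 0.0414, and both of these had no control reads. Nitab4.5_0001157g0050.1 (453 bases) and Nitab4.5_0000465g0100.1 had coefficients of 0.0627 and 0.0724. These 2 had 2 and 9.5 reads over all controls, so even and uneven models were found with and without control reads.

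Few reads of the switched-on models were seen in controls, and they were unevenly divided among the libraries. Reads of at least 0.01 were assigned in 130 of the 462 combinations of model and control library (28.1%). Of these 130 values, 90 were whole numbers within 0.001, as for reads not divided among similar models. One model, Nitab4.5_0020114g0010.1 (1497 bases), had reads in all 7 controls, with 13.5 in total, against 18.7, 37.3 and 64.9 CPM in the auxin-free libraries. Control replicate 7 held reads of 28 of the 66 models, more than the 13 to 20 models of the other 6 controls. Its summed level of 3.44 CPM was the highest, followed by controls 6 and 3 at 2.56 and 2.23 CPM. Controls 1, 2, 4 and 5 had 0.969 to 1.83 CPM, with control 2 lowest. The scaffold neighbours described further on also summed highest in controls 3, 6 and 7, at 1635 to 1760 CPM. In the other controls they summed to 1391 to 1469 CPM. Much of that difference lay in a single neighbour, Nitab4.5_0003324g0090.1. It had 300, 304 and 443 CPM in controls 3, 6 and 7, against 127 to 182 CPM in the other controls. What sets these controls apart was not tested. Control 7 was not the deepest library, with 15390460 estimated reads in a control range of 11280031 to 23705016. The auxin-free libraries held 15159895 to 16216471. A count of 3 reads amounts to 0.127 to 0.266 CPM in a control, depending on its depth, and all intervals and bounds here cover counting error only.

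**Figure D3:**
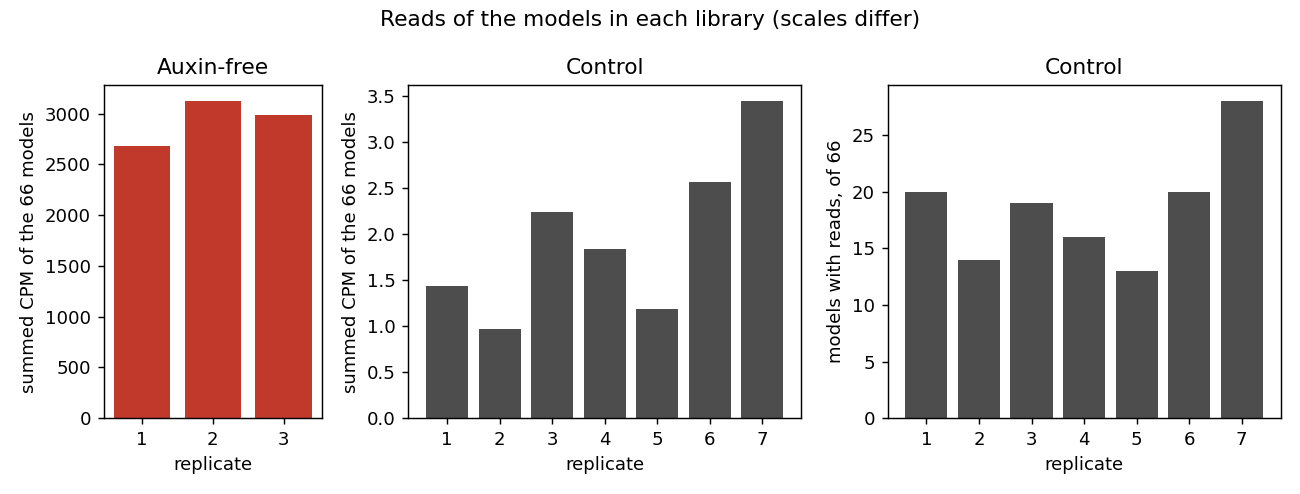
Summed CPM of the 66 switched-on models in each auxin-free library (left) and each control library (centre), and the number of the 66 with reads in each control (right), on linear axes whose scales differ between panels. Auxin-free sums lie between 2680 and 3126 CPM and control sums between 0.969 and 3.44 CPM, with control replicate 7 highest in both control panels.

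The choice of models can be examined in libraries it did not use. The models within the limit in the library left out are always the same 66, since passing it completes the choice. What is new is the number of models gained and their values there. The matching share over all models was not computed. With auxin-free replicate 1 left out of the choice, 81 models qualified, and in replicate 1 itself 66 of them (81.5%) reached 10 CPM, with a median of 19.7 CPM and a lowest value of 1.45 CPM. With replicate 2 left out, 66 of 79 (83.5%) reached it in replicate 2, where the median was 23.3 CPM and the lowest value 0.802 CPM. With replicate 3 left out, 66 of 68 (97.1%) reached it in replicate 3, where the median was 29.6 CPM and the lowest value 5.97 CPM. Only 2 models chosen without an auxin-free library were below 1 CPM in it, both in replicate 2. Among the controls, choices made without control 1, 2, 3 or 6 gave 68 to 73 models, of which 2 to 7 exceeded 3 reads in the library left out. Choices made without control 4 or 5 gave the same 66. Without control 7 the choice widened to 88 models, of which 22 exceeded 3 reads in control 7. Their highest level there was 0.837 CPM (12.9 reads), still far below the median of 35.8 CPM that the 88 models had in the auxin-free libraries.

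Values continued on both sides of each limit of the choice. Just inside the auxin-free limit were Nitab4.5_0002051g0010.1, Nitab4.5_0000390g0100.1 and Nitab4.5_0006692g0010.1, with lowest auxin-free values of 10.05, 10.06 and 10.14 CPM. Just outside were Nitab4.5_0000903g0090.1, Nitab4.5_0000787g0270.1 and Nitab4.5_0000390g0050.1, at 9.631, 9.203 and 9.116 CPM. At the control limit, Nitab4.5_0020114g0010.1, Nitab4.5_0008316g0010.1 and Nitab4.5_0007566g0010.1 had 3 reads in their highest control and 13.5, 13 and 12.4 reads over all controls. Just beyond it, Nitab4.5_0000015g0050.1, Nitab4.5_0000238g0090.1 and Nitab4.5_0012532g0010.1 had 3.001, 3.218 and 3.251 reads in their highest control. Among the 14156 models at 10 CPM or more in each auxin-free library, 17 had no control read at all, 32 had a highest control value above 3 and up to 5 reads, 65 above 5 and up to 10, and 101 above 10 and up to 20. The 66 models are 0.466% of the 14156, and 13182 of these had over 100 reads in at least 1 control.

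The 66 models lay on 62 of the 12822 scaffolds. Order numbers of 10, the first on a scaffold, were held by 20 of them (30.3%), against 18.4% of all models and 19.3% of tested models. Of the 66, 7 (10.6%) were alone on their scaffold, against 5.16% of all models. On 4 scaffolds 2 switched-on models occurred together. On scaffold 0007171, which has no other model, Nitab4.5_0007171g0010.1 (516 bases) had 18.1, 39 and 21.3 CPM in auxin-free libraries and Nitab4.5_0007171g0020.1 had 26.5, 55.3 and 50.2 CPM, and neither had a control read. Both were lowest in replicate 1 and highest in replicate 2.

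On scaffold 0000631, Nitab4.5_0000631g0070.1 (936 bases) had 76.5, 50.9 and 67.9 CPM and the adjacent Nitab4.5_0000631g0080.1 (897 bases) 32.5, 15.9 and 16.2 CPM in auxin-free libraries, against 3 and 7 reads over all controls. The models on either side of this pair did not share the pattern: Nitab4.5_0000631g0060.1 had 9.98, 8.85 and 9.77 CPM in auxin-free libraries against 8.61 to 14 CPM in controls, and Nitab4.5_0000631g0090.1 stayed below 1 CPM in all libraries. On scaffold 0001668, the adjacent Nitab4.5_0001668g0080.1 (1425 bases; 27.2, 10.2 and 13.3 CPM) and Nitab4.5_0001668g0090.1 (831 bases; 29.2, 37.1 and 38.6 CPM) were both switched on, with different replicates highest. On scaffold 0001225 the pair was not adjacent: Nitab4.5_0001225g0190.1 (1431 bases) had 15.5, 32.2 and 19.8 CPM in auxin-free libraries and lay 6 places before Nitab4.5_0001225g0250.1. Between them, Nitab4.5_0001225g0200.1 stayed at or below 0.185 CPM in all libraries, Nitab4.5_0001225g0210.1, Nitab4.5_0001225g0220.1 and Nitab4.5_0001225g0230.1 had at least 11.8 CPM in every library and did not pass the test, and Nitab4.5_0001225g0240.1 fell to 26.4, 14.1 and 22.8 CPM in auxin-free libraries, against 56.2 to 91.6 CPM in controls (edgeR log2 fold change -1.65, adjusted p = 2.81e-05).

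**Figure D4:**
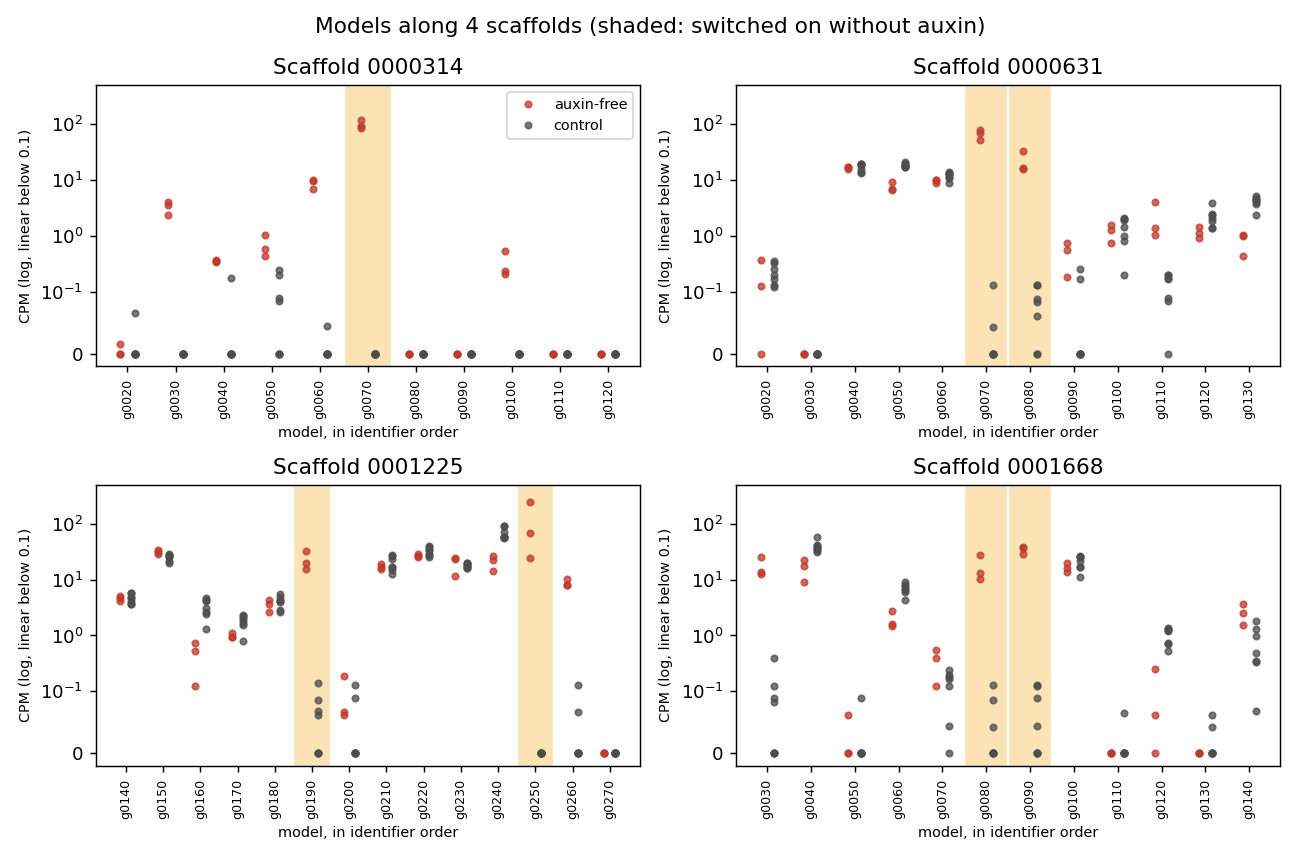
CPM of consecutive models on 4 scaffolds, in identifier order, with auxin-free libraries in red to the left and controls in grey to the right of each tick; shading marks the switched-on models, and the vertical axis is logarithmic above 0.1 CPM. On scaffold 0000314 the shaded model stands 92.1, 119 and 85.8 CPM high among models of at most 9.81 CPM, while on scaffolds 0000631 and 0001225 the shaded models stand near models read in both groups.

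The models next to the switched-on ones were found by position, leaving out 6 that were themselves switched on and so adjacent to another of the set. Their reads were used only in that exclusion, which removed models that were higher in auxin-free cells. There were 95 remaining neighbours, of which 40 (42.1%) had too few reads to test, against 46.7% of all models. Among the 55 tested neighbours, 26 rose, 16 fell and 13 did not pass the test. The shares of 47.3% higher and 29.1% lower stand beside 32.9% of all tested models called higher and 30.4% called lower. Their median log2 fold change was 0.41 with a middle range of -0.56 to 3.32, against 0.02 and -0.83 to 0.94 for all tested models. A rise of at least 16-fold, a size chosen after the values were seen, was found in 13 of the 55 (23.6%), against 4.88% of all tested models. All 13 except Nitab4.5_0000273g0080.1 averaged at most 0.111 CPM in controls. They passed the filter only through the auxin-free libraries, so they could only be higher. They also count among the 26 that rose, and nothing about position is read from the 23.6% or the 47.3%. Whether some neighbours are parts of the same gene as the switched-on model, or share reads with it, was not tested, and the share of higher neighbours was not tested against that of all models.

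**Figure D5:**
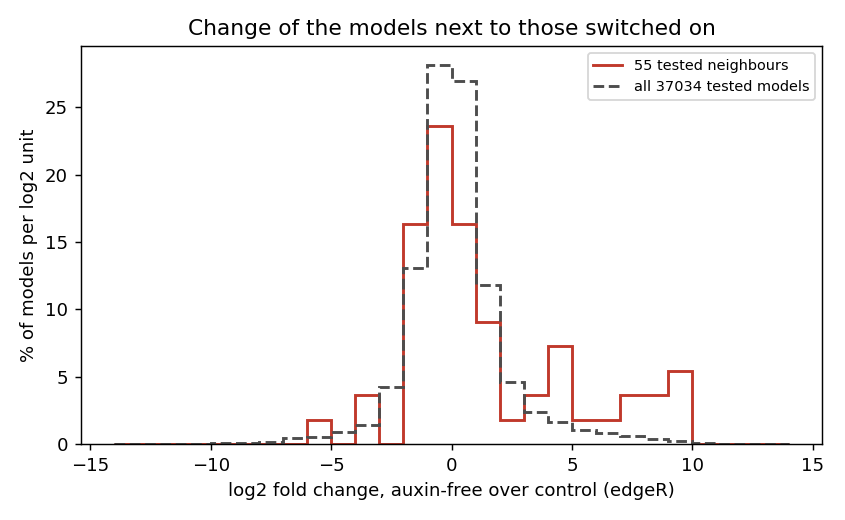
Distribution of edgeR log2 fold changes (auxin-free over control) for the 55 tested neighbours of the switched-on models (solid red) and all 37034 tested models (dashed grey), as a percent of models per log2 unit. The neighbours have a median of 0.41 and a longer right side, with 23.6% called at 4 log2 units or more. All of the latter except Nitab4.5_0000273g0080.1 were almost absent from controls and could only be called higher.

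The 4 neighbours with the largest fitted changes were all higher. All 4 passed the filter only through the auxin-free libraries, so this direction was fixed. Their p-values are given as description. Nitab4.5_0001736g0010.1 (681 bases) had 39.8, 76.5 and 73.4 CPM in auxin-free libraries, against 0 to 0.227 CPM in controls (log2 fold change 9.91, edgeR adjusted p = 2.87e-09). It lies beside Nitab4.5_0001736g0020.1 (1385 bases), which had 23.1, 40 and 59.4 CPM and no control reads. Nitab4.5_0008525g0010.1 (783 bases), the only other model on the scaffold of Nitab4.5_0008525g0020.1, had 13.7, 8.48 and 20 CPM in auxin-free libraries and 1 read over all controls (ratio 1633, interval 293 to 64508; edgeR adjusted p = 4.9e-09). Like its partner it was lowest in replicate 2 and highest in replicate 3. Nitab4.5_0000314g0060.1 (ratio 1009, interval 181 to 39861; edgeR adjusted p = 2.62e-09) is described further on with its scaffold. Nitab4.5_0001225g0260.1 (1644 bases) had 8.05, 7.87 and 10.2 CPM in auxin-free libraries and 3 reads over all controls (ratio 337, interval 115 to 1634; edgeR adjusted p = 1.61e-08). It stands beside Nitab4.5_0001225g0250.1 but was even across the replicates, where that model varied 10.4-fold.

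Other neighbours were read in both groups. The following were picked after their values were seen. Nitab4.5_0000273g0080.1 (759 bases) rose to 431, 909 and 704 CPM in auxin-free libraries, against 15.7 to 36.9 CPM in controls (log2 fold change 4.95, edgeR adjusted p = 7.26e-09). Its neighbour Nitab4.5_0000273g0090.1 was highest in replicate 1, where this model was lowest. Nitab4.5_0003324g0090.1 (3924 bases), beside the abundant Nitab4.5_0003324g0100.1, rose to 586, 998 and 680 CPM, against 127 to 443 CPM in controls (log2 fold change 1.73, edgeR adjusted p = 0.000269). The largest fall was that of Nitab4.5_0006860g0010.1 (609 bases), with 0.227, 0.087 and 0 CPM in auxin-free libraries, against 2.21 to 4.2 CPM in controls (log2 fold change -5.01, edgeR adjusted p = 4.65e-06). This model passed the filter only through the controls, so it could only fall. It stands beside Nitab4.5_0006860g0020.1, which was switched on at 60.8, 42.1 and 50.3 CPM.

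Models of similar length near a switched-on model can be copies of it, but without sequences a match in length does not show this. Scaffold 0000314 held the longest run of such models. Around Nitab4.5_0000314g0070.1 (897 bases, 92.1 to 119 CPM in auxin-free libraries), 6 models within 5 places had lengths from 888 to 911 bases. Nitab4.5_0000314g0060.1, also of 897 bases, had 9.81, 9.47 and 6.76 CPM in auxin-free libraries and 1 read over all controls. Nitab4.5_0000314g0050.1 (888 bases) had 0.441, 1.04 and 0.569 CPM in auxin-free libraries, against 0 to 0.245 CPM in controls, and Nitab4.5_0000314g0040.1 (897 bases) had 0.345 to 0.367 CPM in auxin-free libraries, against 0 to 0.177 CPM in controls. Nitab4.5_0000314g0100.1 (905 bases) reached at most 0.538 CPM in an auxin-free library and had no control reads, and Nitab4.5_0000314g0090.1 and Nitab4.5_0000314g0110.1 had no reads in any library. Just outside that length range, Nitab4.5_0000314g0030.1 (865 bases) rose to 3.6, 4.05 and 2.38 CPM in auxin-free libraries, with no control reads (at least 129-fold higher, edgeR adjusted p = 1.44e-05). That model passed the filter only through the auxin-free libraries, so its p-value is given as description. One model of the run thus carried most of its reads. Its reads were not whole in any auxin-free library, as for reads divided among models, and how they were divided was not tested.

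Outside scaffold 0000314, 8 partners of similar length lay within 5 places of a switched-on model. Of these 2 fell, 1 rose, 1 did not pass the test and 4 had too few reads to test. Nitab4.5_0000505g0140.1 (849 bases), 4 places from the most abundant switched-on model, fell to 13.9, 18.8 and 16.5 CPM in auxin-free libraries, against 29.5 to 35.5 CPM in controls (log2 fold change -0.92, edgeR adjusted p = 0.000141). Nitab4.5_0000008g0360.1 (705 bases) fell to 0.896, 0.53 and 1.03 CPM in auxin-free libraries, against 5.33 to 10.3 CPM in controls (log2 fold change -3.23, edgeR adjusted p = 1.23e-06). The adjacent switched-on model Nitab4.5_0000008g0370.1 (718 bases) had 17.9, 71.9 and 42.3 CPM in auxin-free libraries and 5.47 reads over all controls. These adjacent models thus changed in opposite directions, though the second was chosen for its direction. Nitab4.5_0001028g0130.1 (876 bases) had 10.8, 8.72 and 13.3 CPM in auxin-free libraries, against 4.03 to 8.52 CPM in controls (log2 fold change 0.8, edgeR adjusted p = 0.00777). It lies next to Nitab4.5_0001028g0120.1 (867 bases), switched on at 21.7, 12.6 and 20 CPM. Nitab4.5_0000294g0020.1 (1017 bases), 5 places from a switched-on model, had 1.37, 0.394 and 0.817 CPM in auxin-free libraries, against 0.261 to 0.887 CPM in controls, and did not pass the test (log2 fold change 0.46, edgeR adjusted p = 0.406). The pairs in this paragraph other than the first were picked after their values were seen.

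Equal lengths also occurred between switched-on models on different scaffolds. Nitab4.5_0000314g0070.1 and Nitab4.5_0000631g0080.1 both had 897 bases, and Nitab4.5_0000956g0060.1 and Nitab4.5_0000035g0190.1 both had 585. The members of each pair did not follow one another across the auxin-free replicates: Nitab4.5_0000956g0060.1 had 43.5, 62.1 and 101 CPM and Nitab4.5_0000035g0190.1 had 18.7, 16.6 and 12.8 CPM. A shared length is common in these tables, since a switched-on model had a median of 68 other models of exactly its length. Of the 2003 tested models that shared a length with a switched-on model, 31.4% rose, against 32.9% of all tested models.

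Salmon divides a read that fits several models among them, which leaves counts that are not whole. Whole counts in all 3 auxin-free libraries were found for 3 of the 66 (4.55%, against 3.36% of the 14156 models): Nitab4.5_0002196g0060.1, Nitab4.5_0000771g0010.1 and, chosen after its values were seen, Nitab4.5_0000673g0150.1 (471 bases; 13, 20.1 and 15 CPM in auxin-free libraries, 2 reads in control 6). For another 4 models counts were whole in some of them, and for 59 in none. Tobacco is an allotetraploid with near-identical gene copies from each parent, and how far the levels of the 59 depend on that division was not tested.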

How the data were processed

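RNA-seq of 10 BY-2 samples (3 auxin-free, 7 control) was analysed, with groups and replicate numbers taken from the sample titles. The submitters' processing notes name Trimmomatic and Salmon, with versions, options and index not given in the sources used here. Per the file headers, each deposited table holds, for 69500 gene models, a length, an effective length, a TPM value and an estimated count that is not scaled by library size and can be fractional.

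CPM was computed as estimated reads over the library total times 1000000. The 66 models, the lists and the tests were chosen with earlier results of these data known. Counts were rounded and fitted over all 10 libraries in edgeR 4.0.16 (R 4.3.3) by robust quasi-likelihood F-tests after filterByExpr (minimum count 10) and TMM scaling. The p-values were adjusted by Benjamini-Hochberg and called at 0.05 or less. The procedure was checked on simulated data, with smaller folds and only in models well read in controls. That check does not cover models almost absent from controls. DESeq2 1.42.0 was an alternative. Neighbours were models whose identifier number differs by 10 on the same scaffold, and similar lengths differed by at most 2% within 5 places. Estimated reads below 0.01 were counted as none. Intervals (95%) are exact Poisson limits on summed control reads, in their chi-square form where reads are not whole. Named were the most abundant, most and least even, longest and shortest models, those without control reads at the highest level, those sharing a scaffold or a length, those nearest the limits of the choice and the neighbours that changed most.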

Additional observations from a re-analysis of the deposited data

Results flagged for a closer look

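Each measure was examined over the 7 controls for a library far from the rest, 9 measures in all. Chance flags about 5% of such sets. The flags fell on 2 neighbours of switched-on models, where a single read stood against none in the other controls: Nitab4.5_0008525g0010.1 at 0.0887 CPM in control replicate 6, and Nitab4.5_0000314g0060.1 at 0.0446 CPM in control replicate 2. Control reads of single switched-on models, which the choice limits to 3, were not examined in this way. The summed level of the 66 models in control replicate 7 was not flagged.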

How the results depend on the processing

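The number of switched-on models depends on the limits: a minimum of 5 CPM gave 124 models and 20 CPM gave 31, control limits of 0, 1 and 10 reads gave 17, 25 and 163, and a minimum of 10 TPM in place of CPM gave 142, of which 53 were among the 66. A control limit of 0.2 CPM gave 67 (62 shared), TMM-scaled CPM gave 66, and rounding reads first, an alternative chosen after seeing the data, gave 71. Leaving out 1 library gave 66 to 88, with the highest number without control replicate 7. With 2 identifier places on each side, 96 neighbours were tested, of which 42 rose (43.8%) and 25 fell (26%). Over all other settings 24 to 34 neighbours rose and 13 to 18 fell; the share higher was 44.7% of 76 without a filter (24.5% of all tested models), 43.6% with the replicate block (30.7%) and 45.5% with upper-quartile scaling (28.5%), and the share lower without a filter was 19.7% (20.9%). The shares of higher neighbours include those almost absent from controls, as described above, and nothing about position is read from them. With upper-quartile scaling the middle log2 fold change over tested models was -0.16 (0.02 in the results), with 10540 models higher and 13202 lower, against 12194 and 11240. The replicate numbers did not pair the samples (correlations of same-numbered deviations -0.03, -0.02 and -0.06); a fit with the replicate block called 10989 models higher and 24 neighbours higher. The median coefficient of variation of the 66 models was 0.328 on TPM, and 0.226 to 0.304 with 1 auxin-free library left out, where the larger set had 0.076 to 0.141.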
